A study of Mus musculus with 17 samples.

Results

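Endothelial cells line the blood vessels of the brain. They are joined by tight junctions, carry few transport vesicles and hold the pumps and carriers that decide which nutrients, hormones and drugs enter the tissue, properties that together form the blood-brain barrier. Wnt signals from neural cells keep this barrier program on, and pericytes, the mural cells that wrap capillaries, sit in the same basement membrane as the endothelium.

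Endothelial nuclei were picked out of single-nucleus RNA-seq (sNucDrop-seq) of the mouse neocortex by the genes they expressed. Barcodes with 600 to 5000 genes and under 5% mitochondrial UMIs (unique molecular identifiers, which count captured RNA molecules) were kept as nuclei. A kept nucleus was a member when at least 2 of the 7 genes Flt1, Cldn5, Slco1a4, Pecam1, Tek, Mecom and Slc2a1 had a UMI and 1 of these was Flt1 or Cldn5. A member could hold at most 1 UMI of the neuronal genes Slc17a7, Gad1 and Gad2 together and none of the glial genes Gja1, Mog, Pdgfra and Csf1r. The rule found 76 endothelial nuclei among 31486 kept nuclei, out of 40000 barcodes. By its methods, the study's own endothelial cluster appears to have been larger, and its cluster assignments were not used here. Every share given is therefore a share of nuclei that met the rule. It may leave out other endothelial nuclei and may count nuclei of other cells.

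The mice were males labelled C57BL/6 (the C57BL/6J substrain in the study's methods), with no transgene or mutant allele named for these samples. Mice of the CUS group went through chronic unpredictable stress (CUS) from 9 to 10 weeks of age, with 3 stressors a day for 12 days. Control mice were not stressed, were housed in another room and were handled daily. sNucDrop-seq covered the neocortex of 4 control and 4 CUS mice at postnatal day 80, taken 24 h after the last stressor, and bulk nuclear RNA-seq covered the medial prefrontal cortex (mPFC) of 4 control and 5 CUS mice at postnatal day 90. By the study's methods, the bulk mice went through behavioral tests and were taken 24 h after these ended. The nuclei were prepared in 2 batches with 2 control and 2 CUS mice in each, but which mouse was in which batch is not labelled, so a difference between batches and one between mice cannot be told apart here.

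The 8 nuclear libraries held between 6074138 and 15459579 UMIs in kept nuclei, and the 9 bulk libraries between 26188825 and 30525015 reads on genes. Of 39938 distinct barcode sequences, 50 occurred in more than 1 library, and no member was among them. Libraries differed in how far down the deposited barcodes reached. The barcode with the fewest genes had 703 genes in control replicate 3 and between 1 and 482 genes in the other mice, so nuclei of 600 to 702 genes were not analysed here for that mouse.

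The name of the group was checked against 21 endothelial markers that the rule did not use. All 21 were detected in members, and 70 of the 76 members held at least 1 of them, with a median of 10 markers per nucleus. Of the 6 members without any, control replicates 1 and 3 and CUS replicates 1 and 2 held 1 each. CUS replicate 4, with 6 members in all, held 2. The 25 members with only 2 rule genes held a median of 3 of the markers, so the name is less sure for these. Summed, the markers reached 126.8 UMIs per 10000 in members, against 6.57 in astrocyte nuclei and 0.53 in neuronal nuclei, which were used as the background. That background included 6 barcodes that also met the endothelial part of the rule. In neuronal nuclei of each mouse, the share with a UMI of Ly6c1, 1 of these markers, lay between 0% and 0.555% at a median depth of 2194 to 3784 UMIs. In members it lay between 0% and 83.3% at a median depth of 843 to 3465 UMIs, the 0% being the single member of control replicate 2.

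The members also held mural genes. Of 10 markers of pericytes and smooth muscle, 7 were detected, and 57 of the 76 members held at least 1 and 38 at least 2. Rgs5, a regulator of G protein signaling that marks pericytes, had 508 UMIs in 54 members, and these were 52.1% of all its UMIs in kept nuclei. Vtn, the gene of vitronectin and another pericyte marker, had 162 UMIs in 34 members. The smooth muscle genes Acta2, Tagln and Myh11 were at 0. The barcodes of the group therefore held endothelial RNA and, in many, pericyte RNA, and a nucleus with both cannot be told apart from 2 nuclei that shared a barcode. No doublet caller was run on these nuclei, and the exclusion of neuronal and glial genes was the only guard.

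Endothelial and mural markers moved together across the members. The 19 members without a mural marker held 21.7 UMIs per 10000 of the 21 endothelial markers and a median of 3 of these markers. The 38 members with at least 2 mural markers held 187.8 per 10000 and a median of 12. The median depth of these members was 1901 and 1425 UMIs.

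**Figure D1:**
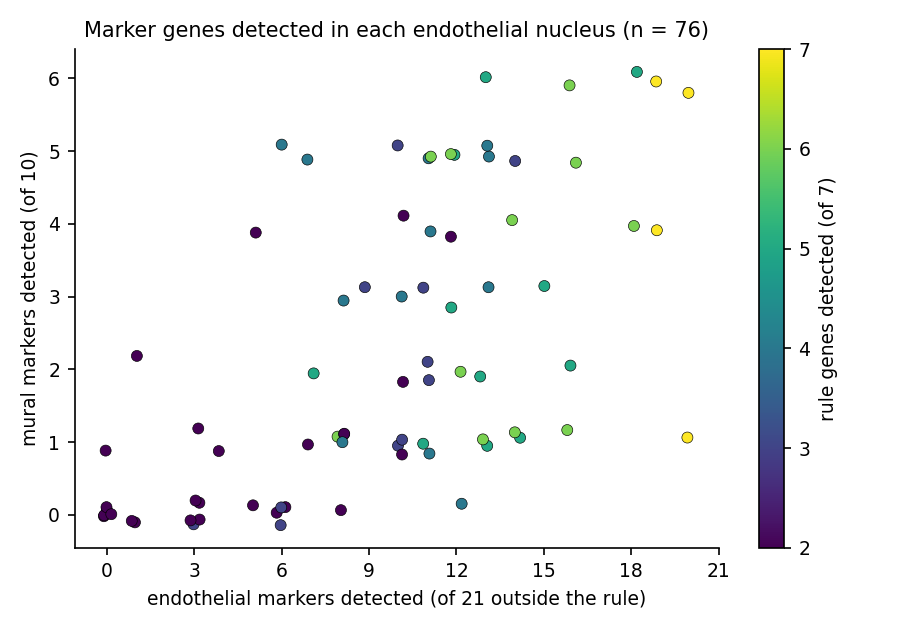
Each point is 1 of the 76 endothelial nuclei, placed by the number of endothelial markers outside the rule (x axis, of 21) and of mural markers (y axis, of 10) with at least 1 UMI, with a small random shift so that points do not hide each other. Color gives the number of the 7 rule genes detected. The 19 nuclei without a mural marker lie mostly at the left, with a median of 3 endothelial markers, and the nuclei with many endothelial markers mostly hold mural markers too.

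In Snap25 and Kcnip4, picked from 6 neuron markers, members without a mural marker lay nearer to neuronal nuclei than members with at least 2 mural markers did. The other neuron markers are not given for these subsets. Snap25, a protein of synaptic vesicle fusion, stood at 18.2 UMIs per 10000 in members without a mural marker, at 5.32 in members with at least 2 mural markers and at 21.9 in neuronal nuclei. Kcnip4, a potassium channel subunit, stood at 36.8, 7.44 and 33.4 in the same order. How much of this neuronal RNA came from outside the nuclei was not tested. The 19 members without a mural marker held 21.7 UMIs per 10000 of the endothelial markers outside the rule, against 0.53 in neuronal nuclei. Of these 19 members, 5 held none of the markers. Whether some of them were neuronal nuclei with a few UMIs of rule genes was not tested either.

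The 7 genes of the rule chose the members, so their values are given as a description. Of the members, 25 held 2 of the 7 genes, 12 held 3, 13 held 4, 11 held 5, 11 held 6 and 4 held all 7. The members with 2 genes held 28.9 UMIs per 10000 of the 21 other markers, and those with 3 held 111.1. Just outside the rule, 82 kept nuclei with Flt1 or Cldn5 as the sole rule gene held 1.80 per 10000, and 20 nuclei left out for a glial UMI held 74.1. A further 50 barcodes met every condition but the mitochondrial one and held 196.2 per 10000.

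Flt1 encodes VEGF receptor 1. It had 485 UMIs in 74 of the 76 members, a level of 29.6 UMIs per 10000 over all members, and by mouse it stood at 12.2, 35.6, 13.4 and 29.3 in control replicates 1 to 4 and at 42.9, 26.4 and 10.3 in CUS replicates 1, 2 and 4. Slco1a4, an organic anion carrier of the barrier, had 349 UMIs in 62 members, with 7.34, 71.2, 19.9 and 25.1 per 10000 in the control mice and 27.1, 19.7 and 1.37 in the CUS mice. The levels of the control and CUS mice overlapped for both genes.

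Cldn5, the main claudin of endothelial tight junctions, had 88 UMIs in 36 members and was at 0 in control replicates 1 and 2, which held 3 and 1 members. In control replicates 3 and 4 it stood at 2.90 and 6.98 UMIs per 10000, and in CUS replicates 1, 2 and 4 at 7.70, 5.16 and 1.37. Slc2a1, the glucose transporter GLUT1, had 120 UMIs in 41 members. Pecam1, an adhesion molecule of endothelial contacts, had 51 UMIs in 24 members, Tek, the angiopoietin receptor, 47 in 24, and the transcription factor gene Mecom 44 in 26.

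The genes that stood highest in members over all other kept nuclei, with the rule genes left out, were Ctla2a, Slc38a5, Ly6a, AU021092, Sox17, Gata2, Ly6c1, Adgrf5, AW112010 and Adcy4. The ratio of pooled levels was 1567-fold for Ctla2a, an inhibitor of cysteine proteases, from 37 UMIs in 18 members, and 559-fold for Adcy4, an adenylate cyclase, from 11 UMIs in 9 members. Ly6a and Ly6c1, surface proteins of the Ly6 family, rested on more UMIs, with 187 in 45 members and 247 in 50 members. These ratios pool the mice, and CUS replicate 1 held 36 of the 76 members. Of the 7 mice with members, AU021092 and AW112010 were detected in 3, Ctla2a, Slc38a5, Sox17 and Adcy4 in 4, Gata2 in 5, Ly6a and Ly6c1 in 6 and Adgrf5 in all 7. Members held 69.0% of all Ly6a UMIs and 63.0% of all Ly6c1 UMIs in kept nuclei. The rule chose members by the same contrast, so no test was run. For scale, 8.90% of the 4000 genes with at least 10 UMIs in members and in at least 10% of them stood more than 8-fold over the other nuclei, and the median ratio of these genes was 1.23.

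All 21 endothelial markers outside the rule stood more than 8-fold over the other nuclei, with a median ratio of 188.5. Ptprb, the vascular endothelial phosphatase that acts on Tek, reached 13.8 UMIs per 10000 with 1.22 to 71.2 across mice. Itm2a, a membrane protein gene of brain vessels, reached 14.1 with 2.45 to 23.7 across mice. The highest values were those of control replicate 2, which held 1 member of 843 UMIs. Summed, the 21 markers stood at 17.1 and 19.2 UMIs per 10000 in control replicate 1 and CUS replicate 4 and at 82.3 to 272.8 in the other mice.

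Barrier transporters stood high in members. Of the 19 non-rule genes of this list with enough UMIs, 14 stood more than 8-fold over the other nuclei. Abcb1a, the efflux pump P-glycoprotein, reached 9.63 UMIs per 10000 in members against 0.01 in neuronal nuclei, and Abcg2, the second large efflux pump of the barrier, 4.27 against 0.08. Slco1c1, the thyroid hormone carrier, reached 12.5 in members and 4.34 in astrocyte nuclei, so it marked both classes. Slc7a5, the large neutral amino acid carrier LAT1, reached 2.50 in members, and Slc39a10, a zinc carrier, 7.13 against 2.14 in neuronal nuclei.

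Tight and adherens junction genes were more mixed, with 6 of 10 non-rule genes more than 8-fold over the rest. Esam and Lsr, which encode an endothelial adhesion molecule and a protein of tricellular contacts, were 134.9-fold and 193.7-fold over the rest. Tjp1, the scaffold protein ZO-1 that many cell types share, stood at 5.12 UMIs per 10000 in members and 1.87 in neuronal nuclei. Of the 7 genes of transcytosis and caveolae with enough UMIs, 2 stood more than 8-fold over the rest, with a median ratio of 4.98. Among receptors of transcytosis, Igf1r reached 11.5 against 1.28 in neuronal nuclei and the transferrin receptor gene Tfrc 3.29 against 0.73. Cav1, the caveolin of vesicles that the barrier suppresses, had 30 UMIs in 17 members, and Plvap, a protein of leaky vessels, was at 0 among 164078 UMIs.

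Growth factor receptors and Wnt genes were detected as well. At least 1 gene of the VEGF, angiopoietin and Notch list, which holds the rule genes Flt1 and Tek, was found in all 76 members, and at least 1 of the Wnt and Norrin list in 67. Of 16 non-rule genes of the former list, 11 stood more than 8-fold over the rest, and among them Kdr, VEGF receptor 2, had 42 UMIs in 23 members and the TGF-beta co-receptor gene Eng 39 in 21. Of 13 genes of the latter, 9 did. Lef1, the transcription factor of Wnt signaling, was 182.2-fold over the rest with 62 UMIs in 28 members, and Fzd6, a Frizzled receptor, 76.9-fold with 31 UMIs in 20. Fzd4, the Norrin receptor, had 11 UMIs in 9 members.

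Endothelial transcription factors were 13 of 17 over the 8-fold line. Epas1, the hypoxia factor HIF-2 alpha, had 84 UMIs in 30 members, and Klf2, the factor induced by blood flow, 61 in 34. Ets1 and Fli1 of the ETS family had 49 UMIs in 28 members and 42 in 26. Klf2 and Ets1 were at 0 in the members without a mural marker, and stood at 5.98 and 5.18 UMIs per 10000 in those with at least 2.

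Genes of all 3 vessel segments were detected. At least 1 of 8 capillary genes was found in 69 members, at least 1 of 10 venous genes in 36 and at least 1 of 11 arterial genes in 25. The lists do not separate the segments in single nuclei, since 22 members held capillary and venous genes together, 11 capillary and arterial genes, and 14 genes of all 3, while 22 held capillary genes alone and 7 none. In neuronal nuclei, which were deeper, a capillary gene was found in 56.8%, a venous gene in 14.95% and an arterial gene in 23.5% of nuclei, against 90.8%, 47.4% and 32.9% of members. Cxcl12, a chemokine of capillaries, had 204 UMIs in 45 members, Vwf, the clotting factor carried by larger vessels, 20 in 13, and Mgp, an arterial matrix protein, 35 in 17.

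Genes of leukocyte adhesion and vascular tone summed to 27.8 UMIs per 10000 in members and genes of the basement membrane to 34.6, against 1.44 and 3.07 in neuronal nuclei. Of those with enough UMIs, 5 of 6 and 6 of 12 stood more than 8-fold over the rest. B2m, a subunit of class I antigen presentation, had 141 UMIs in 49 members, the class I gene H2-K1 48 in 21, and Edn1, the vasoconstrictor endothelin, 22 in 13. The selectins Sele and Selp were at 0, which at this depth does not show that they were absent. Sparc, a matrix glycoprotein, had 149 UMIs in 44 members, and Itga1, an integrin that binds collagen, 76 in 32. Of the 10 glucocorticoid-responsive genes with enough UMIs, 3 stood more than 8-fold over the rest, with a median ratio of 3.74. Nfkbia, the inhibitor of NF-kappa B, was 53.2-fold over the rest with 139 UMIs in 41 members, and Nr3c1, the glucocorticoid receptor, 1.72-fold with 49 UMIs in 28.

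Markers of blood and of other cells were found in members too. The 6 markers of any neuron had 1104 UMIs in 70 members and the astrocyte markers 400 in 65. The 4 hemoglobin genes together had 322 UMIs in 18 members, or 19.6 UMIs per 10000 with 0 to 118.6 across mice, and the hemoglobin gene Hbb-bs alone had 60 UMIs in 1 nucleus of control replicate 4 and 142 in 8 nuclei of CUS replicate 1. Microglial markers had 30 UMIs, perivascular macrophage markers 2 and fibroblast markers 9.

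**Figure D2:**
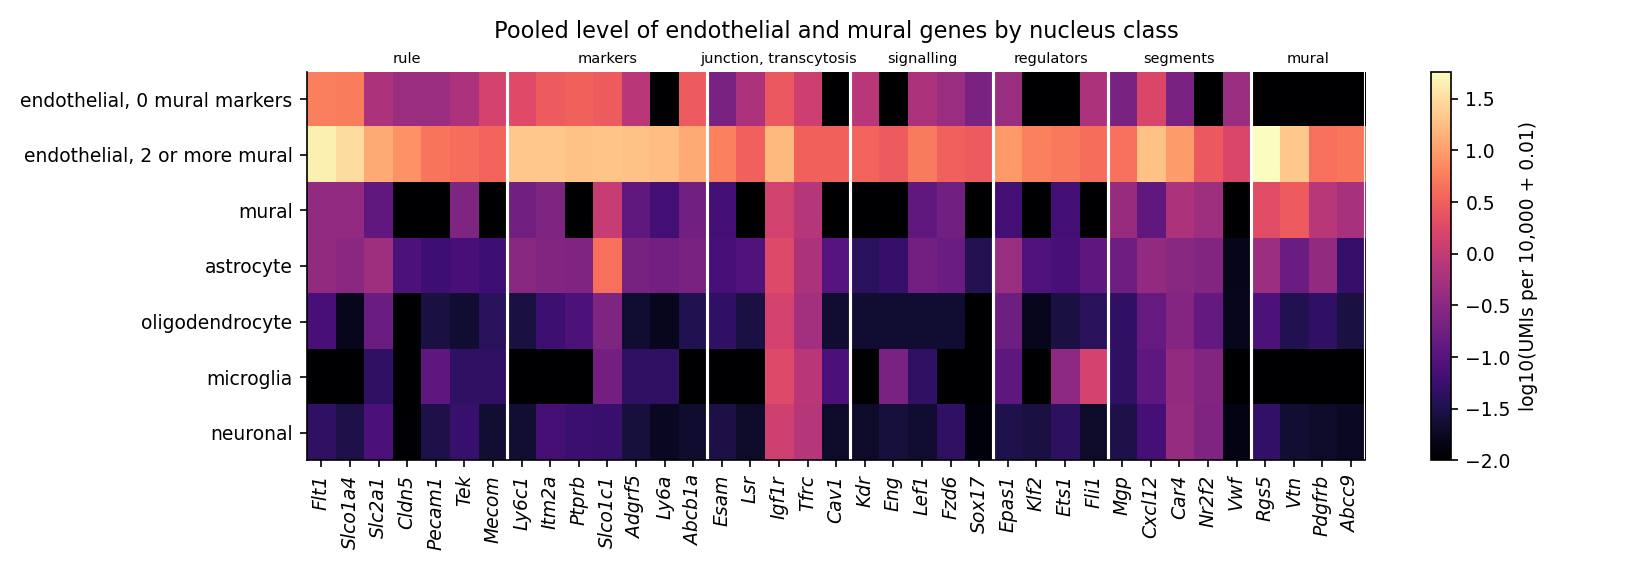
Color gives the pooled level of each gene (columns, grouped by role) as log10 of UMIs per 10000 plus 0.01 in classes of kept nuclei (rows). The second row, members with at least 2 mural markers, is brightest for most endothelial genes and for mural genes, with Flt1 at 44.9 and Rgs5 at 58.0 UMIs per 10000, while Igf1r and Tfrc are seen in every class.

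The first comparison asked whether CUS mice differed from controls in the share of endothelial nuclei. Endothelial nuclei made up 0.0870%, 0.0207%, 0.121% and 0.265% of kept nuclei in control replicates 1 to 4, from 3, 1, 6 and 6 nuclei. In CUS replicates 1 to 4 they made up 0.888%, 0.522%, 0% and 0.123%, from 36, 18, 0 and 6 nuclei. CUS replicates 1 and 2 thus held 54 of the 76 members, and the other CUS mice lay within or below the control range. The 0 of 3605 nuclei in CUS replicate 3 allows a share of up to 0.0832% (3 counts of the total), and the exact two-sided 95% interval drawn in the plot of shares reaches 0.102%.

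The exact 95% intervals (Clopper-Pearson, counting error only) were 0.623% to 1.23% in CUS replicate 1 and 0.309% to 0.823% in CUS replicate 2. The highest upper bound among controls was 0.575%, in control replicate 4. The means were 0.123% ± 0.103 (SD, n = 4) in controls and 0.383% ± 0.403 (SD, n = 4) in CUS, a difference of 0.260 percentage points that was smaller than the spread between CUS mice (two-sided exact permutation test, p = 0.314, where the smallest p that 4 against 4 mice can give is 0.0286). Without CUS replicate 1 the difference was 0.0915 percentage points. A share counts captured nuclei and is not a measure of how many endothelial cells the tissue held.

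The share depended on the limits placed on barcodes. Of the 50 barcodes that met the rule but for the mitochondrial limit, 16 were from control replicate 4, 9 and 10 from CUS replicates 1 and 2 and between 1 and 5 from each other mouse. Without that limit, control replicate 4 reached 0.962%, against 1.10% and 0.807% in CUS replicates 1 and 2, and the difference between the groups was 0.203 percentage points (exact permutation test, p = 0.571). Without members that held at least 2 mural markers, the shares were 0.0580%, 0.0207%, 0.101% and 0.0882% in the control mice and 0.321%, 0.319%, 0% and 0.0821% in the CUS mice (p = 0.343 in the exact permutation test). Both settings were chosen after the data were seen. A planned setting required at least 3 rule genes. It left 2, 1, 1 and 6 members in the control mice and 28, 11, 0 and 2 in the CUS mice. The exact permutation test of these shares gave p = 0.371.

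Members with mural markers, and vascular RNA in neuronal nuclei, also moved with the mouse. Members with at least 2 mural markers numbered 1, 0, 1 and 4 in the control mice and 23, 7, 0 and 2 in the CUS mice. In neuronal nuclei, the 21 endothelial markers summed to 52.6, 47.9, 45.1 and 50.2 UMIs per 1000000 in the control mice and to 70.9, 96.4, 45.3 and 51.5 in the CUS mice, so the mice with the most members also had the most endothelial RNA in neuronal nuclei. The neuronal class kept 6 barcodes that also met the endothelial part of the rule. Flt1, Slco1a4 and Ly6c1 each had UMIs in only 0.370% of the 270 neuronal nuclei of CUS replicate 2. Free RNA and mixed barcodes were not told apart for the 21 markers as a set. The part of mural markers or of this RNA in the share was not tested.

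**Figure D3:**
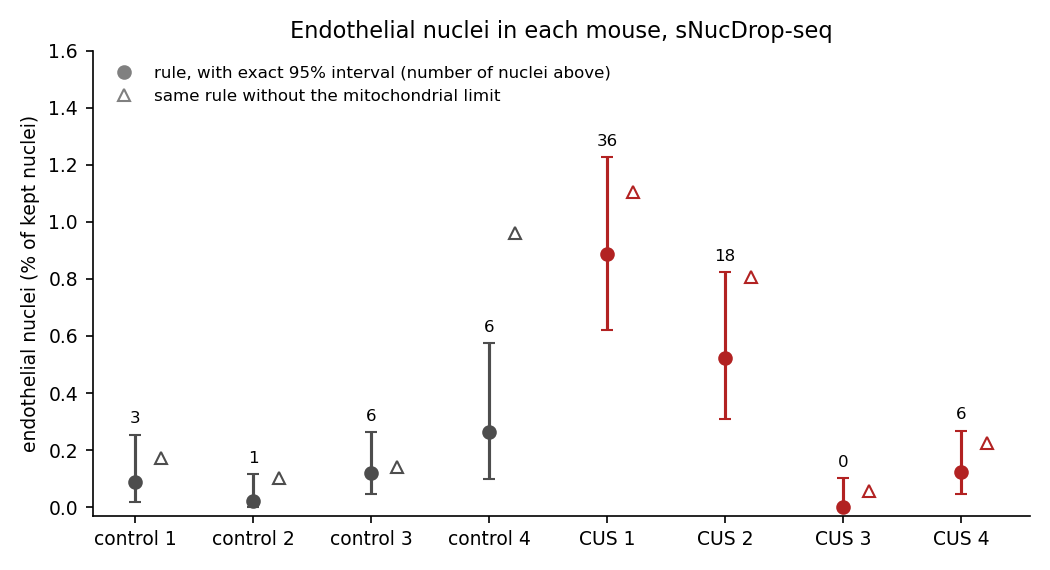
Filled circles give the share of kept nuclei that were endothelial (y axis, percent) in each of the 8 mice, with the exact 95% binomial interval and the number of nuclei above it, and open triangles give the share when the mitochondrial limit is dropped. CUS replicates 1 and 2 stand at 0.888% and 0.522%, CUS replicate 3 at 0%, and without the limit control replicate 4 moves from 0.265% to 0.962%.

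Depth per member overlapped between the groups. The median UMIs of a member were 3465, 843, 2407 and 1132 in the control mice and 1561, 1257 and 1947 in CUS replicates 1, 2 and 4. The means over mice were 1962 in controls and 1588 in CUS (exact permutation test, p = 0.686, n = 4 and 3). The direction turned without control replicate 1. Over all members the median was 1448 UMIs and 1005 genes.

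The next comparison asked which genes differed within endothelial nuclei. UMIs of members were summed for each mouse, which left out CUS replicate 3, and 5066 genes were tested with edgeR. At an FDR of 0.2, 1 gene was called, or 0.0197% of those tested, and 275 genes had an unadjusted p under 0.05. Without the 7 rule genes, which chose the members, these were 274 of 5059 genes, a share near the 0.05 that chance alone gives. Counts were simulated once, at the depth of each mouse multiplied by its TMM factor. This factor was 4.90 in control replicate 2, so its simulated depth was above its own 709 UMIs. None of the genes changed 4-fold was recovered (0%), so changes of that size could be missed in these samples. None of the 21 endothelial markers was called, and these held 397 UMIs in control and 1683 in CUS members.

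The called gene was Ttr, the transthyretin gene of the choroid plexus, with an FDR of 0.174 in edgeR's quasi-likelihood test. It had 0 UMIs in all 4 control mice and 2, 87 and 0 UMIs in CUS replicates 1, 2 and 4. A single nucleus of CUS replicate 2 held 86 of these UMIs. Neuronal nuclei of CUS replicate 2 held 404.7 Ttr UMIs per 1000000, against 1.81 to 21.7 in the other mice. Yet only 5.93% of these nuclei held a Ttr UMI, against 0.490% to 6.28% in the other mice, so the high level rested on few nuclei. The other choroid plexus markers Folr1, Kl and Foxj1 were at 0 in members. Without CUS replicate 2, Ttr was not called (FDR = 1.00), and this was also so without CUS replicate 1 (FDR = 0.381), control replicate 1 (FDR = 0.999), control replicate 3 (FDR = 0.505) or control replicate 4 (FDR = 0.787).

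The other genes among the 4 with the smallest p in each direction, rule genes left out, were not called, with an FDR of 0.891. Il1rapl2, a synaptic adhesion gene, had 0 UMIs in the control mice and 6, 3 and 8 in CUS replicates 1, 2 and 4. Cebpz had 22, 3 and 0 in these mice and Lsm14a, an RNA-binding protein gene, 13, 7 and 1, both with 0 in controls. In the other direction, Nnat had 44 UMIs in control replicate 3 and 0 in the other controls, with 39 of the 44 in 1 nucleus, against 3, 0 and 0 in CUS. Ptgds, prostaglandin D synthase, had 70 UMIs in control replicate 3, 65 of them in 1 nucleus, and 6, 0 and 1 in CUS. Dpyd, which breaks down pyrimidines, had 8, 0, 2 and 0 UMIs in the control mice, against 3, 0 and 0 in the CUS mice. Sybu, a motor adaptor of axonal transport, had 1, 0, 19 and 0 in controls and 4, 2 and 0 in CUS. For Nnat and Ptgds, then, a single nucleus held most of the UMIs.

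Levels of the gene groups in members varied as much within a group of mice as between them. Barrier transporters summed to 24.5, 237.2, 68.1 and 115.8 UMIs per 10000 in control replicates 1 to 4 and to 122.9, 79.8 and 24.6 in CUS replicates 1, 2 and 4. Junction genes summed to 12.2, 23.7, 24.6 and 32.1 in controls and to 44.7, 33.4 and 12.3 in CUS. Mural markers summed to 9.79, 0, 18.1 and 96.3 in controls and to 75.6, 34.9 and 16.4 in CUS. Control replicate 4 and CUS replicate 1, which held the most mural RNA, were also the highest of their groups for junction genes. The 6 markers of any neuron summed to 144.4, 35.6, 75.4 and 20.9 in controls and to 37.4, 79.2 and 155.3 in CUS, so control replicate 1 and CUS replicate 4, the lowest of their groups for barrier transporters and junction genes, were the highest for neuronal RNA. Their sums, 144.4 and 155.3, lay above the 131.7 UMIs per 10000 of neuronal nuclei. The part of mural or neuronal RNA in these levels was not tested. Nfkbia stood at 2.45, 0, 4.35 and 11.2 in controls and at 13.6, 5.16 and 0.684 in CUS.

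Bulk nuclear RNA-seq of the mPFC measured the same genes in other mice. In bulk tissue, fewer endothelial cells and less RNA per cell cannot be told apart. Of 18394 genes tested with edgeR, 606 were called at an FDR of 0.05, or 3.29%. These were 214 higher in CUS, 1.16% of those tested, and 392 lower, 2.13%. An unadjusted p under 0.05 was found for 3954 genes, or 21.5%. Over all genes the median log2 fold change was 0.01.

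The endothelial genes that identify the class were not called in bulk. None of the 7 rule genes was called, with a median log2 fold change of 0.04 and 2 with an unadjusted p under 0.05. None of the 21 markers outside the rule was called, with a median of 0.06, 12 higher and 9 lower, and 3 with an unadjusted p under 0.05. Against the 21.5% of all genes, these were 28.6% and 14.3%. DESeq2 and the likelihood ratio test each called 2 of these 28 genes, Slc2a1 and Ly6c1. Summed over the 21 markers, the control mice held 903.7, 791.3, 735.3 and 920.3 CPM (read counts per 1000000) and the CUS mice 938.4, 824.1, 835.8, 878.9 and 792.9. The range of CUS mice overlapped that of controls.

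Flt1 (chr5:147561604-147726011, minus strand, mm10) stood at 160.1, 132.8, 126.7 and 147.6 CPM in the control mice and at 178.0, 144.6, 153.9, 158.3 and 149.1 in the CUS mice, with a log2 fold change of 0.14 ± 0.08 (SE) and an FDR of 0.313 (edgeR). Pecam1 (chr11:106654217-106750628) held 26.1 ± 2.41 CPM in controls and 25.4 ± 1.13 in CUS (SD, n = 4 and 5), and Slco1a4 (chr6:141805440-141856199) held 127.3 ± 22.3 and 131.1 ± 7.03. Cldn5 (chr16:18776847-18778262) held 15.8 ± 1.02 in controls and 17.98 ± 2.04 in CUS, with a log2 fold change of 0.19 ± 0.09 (SE) and an FDR of 0.222. All 4 genes overlapped between the groups.

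Slc2a1, the glucose transporter (chr4:119108711-119137983), lay nearest to the threshold among the rule genes. It stood at 93.4, 88.9, 87.8 and 120.7 CPM in control mice and at 122.0, 122.5, 104.6, 153.1 and 154.6 in CUS mice, with a log2 fold change of 0.43 ± 0.12 (SE) and a quasi-likelihood FDR of 0.073. Control replicate 4 overlapped the CUS mice. The FDR was 0.022 in the likelihood ratio test, 0.020 in DESeq2, 0.042 without a filter on low counts, and between 0.029 and 0.189 when 1 mouse was left out. Slc19a3, a thiamine carrier of brain vessels (chr1:83012523-83038448), held 4.88 ± 1.23 CPM in controls and 7.28 ± 1.15 in CUS (SD), with an FDR of 0.070, and 0.020 in the likelihood ratio test, 0.017 in DESeq2 and 0.049 without a filter on low counts. Ly6c1 (chr15:75044018-75048830) held 20.3 ± 2.39 and 26.3 ± 4.11, with an FDR of 0.082, and 0.033 in the likelihood ratio test and 0.035 in DESeq2.

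Of all 163 genes tested from the vascular lists together, 9 were called in bulk, or 5.52%, against 3.29% of all genes, and 13 did not overlap between the groups, or 7.98%, against 8.76% of all genes. No gene was called among the junction, arterial, venous and basement membrane genes, nor among the markers outside the rule, with median log2 fold changes between -0.05 and 0.06. Of the 8 capillary genes, 7 were higher in CUS with a median of 0.17, 1 was called (Slc7a5), and 3, or 37.5%, had an unadjusted p under 0.05. Of the 9 called genes, 5 were higher and 4 lower in CUS. Genes of the lists that were too low to test in bulk, such as Sele, Selp and Ager, were left out.

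Of the 22 barrier transporters tested, 2 rose, or 9.09%, against 1.16% of all genes. Slc7a5, the LAT1 carrier (chr8:121881150-121907694, minus strand), stood at 59.3, 48.0, 56.4 and 57.8 CPM in controls and at 70.6, 67.2, 64.2, 77.6 and 77.9 in CUS, without overlap, a log2 fold change of 0.37 ± 0.08 (SE, FDR = 0.027, edgeR). Slc39a10, the zinc carrier (chr1:46807544-46892852), rose from 164.3 ± 11.1 to 195.0 ± 10.5 CPM (SD), a log2 fold change of 0.25 (FDR = 0.047). The list as a whole had 13 genes higher and 9 lower, with a median of 0.06. Members held 5.60% of the Slc7a5 UMIs and 0.552% of the Slc39a10 UMIs in kept nuclei, and the rest came from other nuclei.

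Igf1r, the IGF-1 receptor, which the lists place with receptors of transcytosis (chr7:67952827-68233668), stood at 407.6, 406.9, 450.7 and 414.8 CPM in controls and at 501.0, 526.4, 485.3, 504.6 and 534.2 in CUS, a rise of 0.28 ± 0.05 on the log2 scale (SE, FDR = 0.020). Of 23 genes of the VEGF, angiopoietin and Notch list, 2 were called, or 8.70%, against 3.29% of all genes. Nrp1, the VEGF and semaphorin co-receptor (chr8:128358604-128503363), rose from a range of 112.5 to 135.5 CPM in controls to 138.2 to 153.2 in CUS (FDR = 0.037). Nrp2, its relative (chr1:62703285-62818695), fell by 0.49 on the log2 scale, from 75.3 ± 11.3 to 53.5 ± 4.08 CPM (FDR = 0.016). Igf1r and Nrp1 were 7.93-fold and 2.77-fold over the other nuclei in members, and Nrp2 1.16-fold. Most UMIs of these genes in kept nuclei came from other nuclei.

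Cd34, Tspan12 and Foxo1 were also called. Cd34, a sialomucin of capillary endothelium (chr1:194938819-194961279), stood at 40.2, 33.2, 30.2 and 33.3 CPM in controls and at 46.4, 44.6, 42.3, 44.9 and 43.8 in CUS, a log2 fold change of 0.38 ± 0.08 (SE, FDR = 0.022). Tspan12, a tetraspanin of the Norrin receptor (chr6:21771395-21852515), fell by 0.32 on the log2 scale (FDR = 0.042). Foxo1, a transcription factor that insulin and growth factors restrain (chr3:52268336-52353221), fell from 66.6 ± 9.31 to 48.4 ± 2.14 CPM (SD, FDR = 0.013). In members, Cd34 had 33 UMIs and stood 6.84-fold over the rest, Foxo1 had 11 and Tspan12 6. Most Cd34 UMIs in kept nuclei still came from other nuclei.

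These calls rested on particular mice to different degrees. Foxo1 was called whichever mouse was left out. Without CUS replicate 4 or CUS replicate 5 the 7 others named here were lost, with FDRs from 0.0512 to 0.129, and without control replicate 2 all of these but Nrp2 were lost, with FDRs from 0.0790 to 0.142. Nrp1, Slc39a10 and Tspan12 were also lost without CUS replicate 1 or CUS replicate 3 (FDRs from 0.0625 to 0.0875), Nrp1 and Tspan12 without control replicate 1 (0.0629 and 0.0730), and Slc39a10 and Tspan12 without control replicate 4 (0.0673 and 0.0857). Every call kept its direction.

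**Figure D4:**
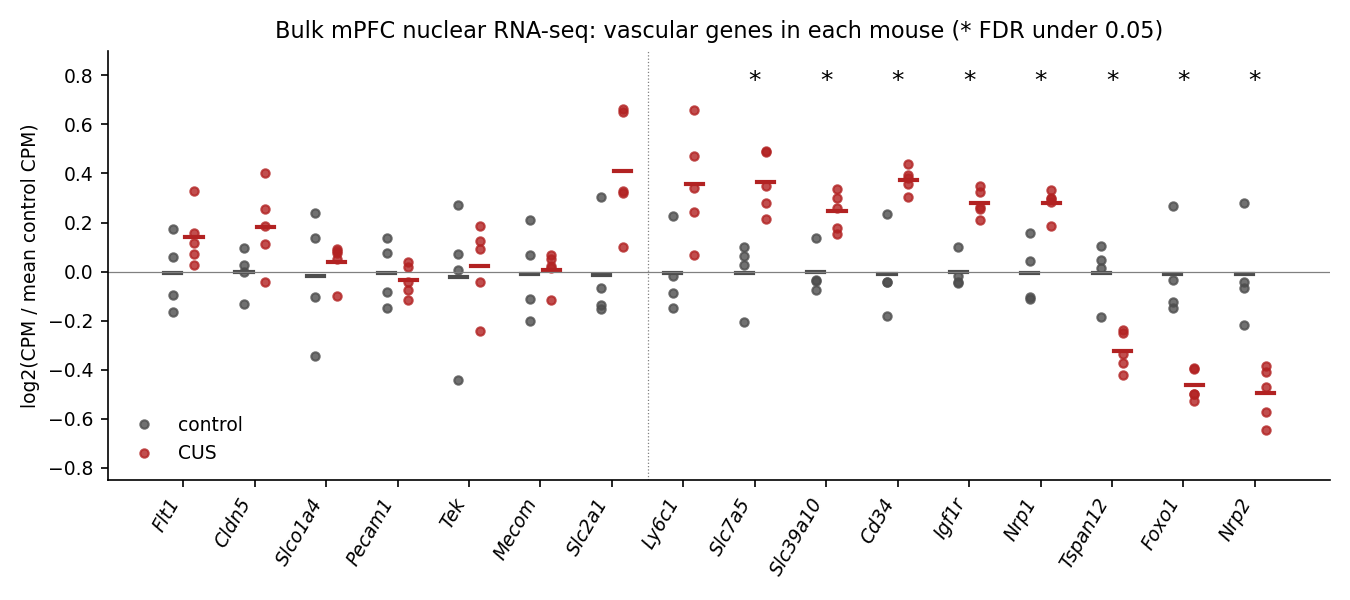
Each point is 1 mouse of the bulk mPFC RNA-seq (4 control, 5 CUS), the y axis gives log2 of CPM over the mean of the control mice, bars are group means, and a star marks an FDR under 0.05 in edgeR. The 7 rule genes left of the dotted line have no star, and from Slc7a5 to Nrp2 the CUS mice lie wholly above or below the controls.

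Glucocorticoid-responsive genes had 2 calls of 16, or 12.5%, both lower in CUS, against 3.29% of all genes called and 2.13% called lower. Dusp1, a phosphatase that ends MAP kinase signals, stood at 14.2, 12.5, 10.4 and 12.1 CPM in controls and at 8.35, 8.01, 7.14, 8.18 and 8.95 in CUS, a fall of 0.60 on the log2 scale (FDR = 0.010), and Nr3c2, the mineralocorticoid receptor, fell by 0.23 (FDR = 0.040). Nr3c1, the glucocorticoid receptor, held 166.2 ± 11.6 CPM in controls and 141.4 ± 11.1 in CUS (SD, FDR = 0.078, edgeR), with the groups overlapping. Its FDR was 0.046 in the likelihood ratio test, 0.033 in DESeq2, 0.0495 without TMM factors, and 0.021 to 0.191 when 1 mouse was left out. Of the whole list, 4 genes were higher and 12 lower, with a median of -0.04. In members, Dusp1 had 2 UMIs and Nr3c2 25, and both stood near the level of the other nuclei, 1.18-fold and 1.06-fold. Leaving out any mouse kept Dusp1 called, and Nr3c2 was lost without control replicate 2 or 4 or CUS replicate 1, 2, 4 or 5, with FDRs from 0.0561 to 0.132.

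Of the genes of these lists that were not called in bulk, several had low p-values. Angpt2, the angiopoietin that loosens vessels, held 1.93 ± 0.312 CPM in controls and 1.27 ± 0.226 in CUS (FDR = 0.081, with 0.031 in the likelihood ratio test and 0.0499 in DESeq2). Flt4, VEGF receptor 3, held 6.26 ± 0.120 and 7.68 ± 0.886 (FDR = 0.106). The transcription factor genes Bcl6b and Hhex held 1.91 ± 0.232 and 0.820 ± 0.230 CPM in controls and 1.14 ± 0.440 and 0.458 ± 0.139 in CUS (FDR = 0.106 and 0.105, with 0.047 for Bcl6b in the likelihood ratio test). Ednrb, an endothelin receptor, held 12.7 ± 1.76 and 9.39 ± 1.76 (FDR = 0.089, with 0.039 in the likelihood ratio test and 0.036 in DESeq2), and the nitric oxide synthase gene Nos3 12.9 ± 0.555 and 15.3 ± 1.72 (FDR = 0.116).

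The transporter Slc16a1, which carries lactate, held 29.9 ± 2.83 CPM in controls and 25.4 ± 1.41 in CUS (FDR = 0.082, with 0.042 in DESeq2), and Mfsd2a, a lipid carrier that restrains vesicle transport, 14.2 ± 2.70 and 17.2 ± 2.06 (FDR = 0.204). Among matrix genes, Lama4, a laminin of vessels, held 35.8 ± 6.34 and 27.8 ± 5.11 (FDR = 0.140). The arterial genes Gja5 and Fbln5 held 1.54 ± 0.0948 and 4.30 ± 0.695 CPM in controls and 1.03 ± 0.317 and 3.14 ± 0.638 in CUS (FDR = 0.131 and 0.130). Of the 10 genes that led the members, 9 were higher in CUS in bulk with a median log2 fold change of 0.23, and none was called (3 of 10, or 30%, with an unadjusted p under 0.05, against 21.5% of all genes). Of all 18394 genes tested, 9442 were higher in CUS. The 10 genes were picked from pooled members, 60 of 76 of them from CUS mice. The list therefore leaned toward genes seen in CUS nuclei, and nothing is concluded from its direction.

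Some markers of other cells were called in the bulk samples too, where 3.29% of all genes were. The 4 markers of excitatory neurons were all higher in CUS (none called), with a summed level of 1381 to 1848 CPM in controls and 1938 to 2059 in CUS. The 4 markers of inhibitory neurons were all lower with no call (median -0.29), and the 6 markers of any neuron had 4 higher and 2 lower with no call (median 0.02). The 6 astrocyte markers were all lower, 2 of them called, at 2118 to 2551 CPM in controls and 1947 to 2296 in CUS. The 5 oligodendrocyte markers were all lower with a median log2 fold change of -0.55, 1 of them called, at 279.5 to 665.5 CPM in controls and 292.7 to 373.6 in CUS. The 4 markers of oligodendrocyte precursors lay at 887.5 to 1087 CPM in controls and at 1255 to 1406 in CUS, without overlap, although 1 was higher and 3 lower, and the higher gene, Tnr, was called. The 6 fibroblast, 4 perivascular macrophage and 4 hemoglobin genes were all lower with no call, at 32.9 to 49.7, 11.6 to 23.5 and 21.1 to 31.0 CPM in controls and 22.6 to 42.4, 10.9 to 17.2 and 13.03 to 28.9 in CUS, and 3, 0 and 2 of them had an unadjusted p under 0.05. The 10 mural markers had 6 higher and 4 lower with no call and lay at 257.3 to 326.1 CPM in controls and 281.5 to 316.3 in CUS. The part of these shifts in the calls above was not tested.

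**Figure D5:**
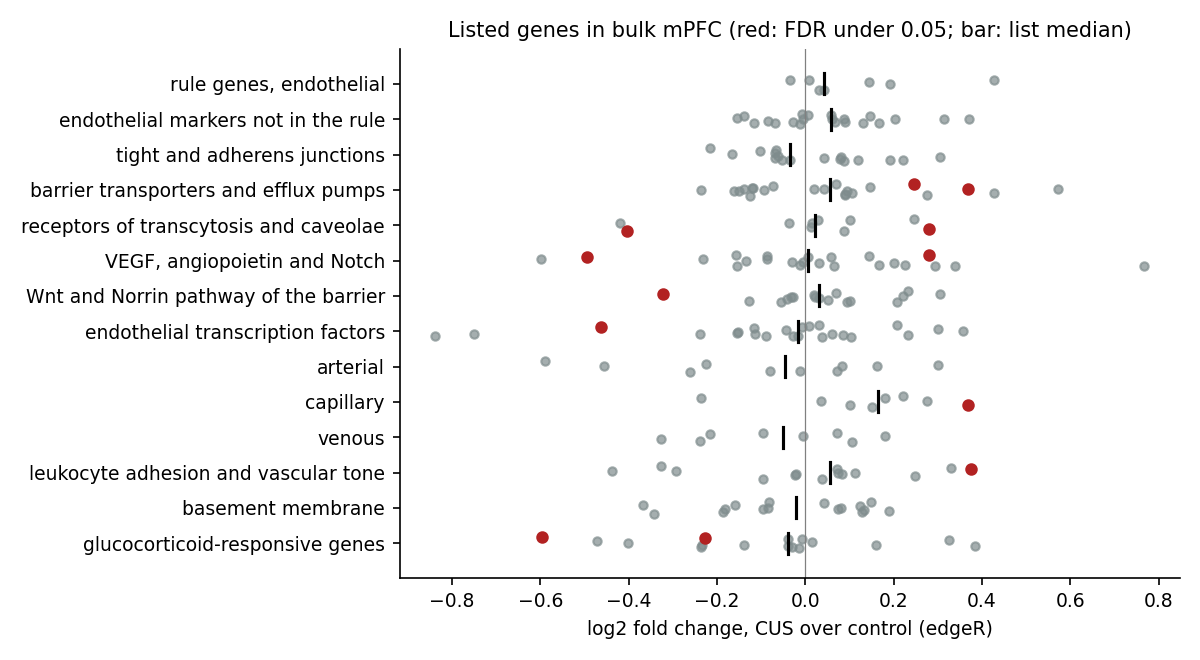
Each point is 1 gene, placed by its log2 fold change of CUS over control in bulk mPFC (x axis, edgeR) within its list (rows), black bars are list medians and red points had an FDR under 0.05. List medians lie close to 0, at 0.06 for the 21 endothelial markers, and the red points lie on both sides.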

How the data were processed

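Neocortical nuclei of 8 mice (sNucDrop-seq) and mPFC nuclei of 9 mice (bulk RNA-seq) were measured. The deposited UMI counts (5000 barcodes per mouse, before any filter on nuclei) and bulk read counts were made by the authors from reads mapped to mm10, STAR being named for alignment. UMIs within exons and introns were counted on the gene's strand, while the use of strand in the bulk counting is not given in the sources used here. Groups came from the labels, and all replicates are separate mice.

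Members were found by the stated rule. UMIs were summed per mouse over genes with more UMIs than 10% of the number of members, and bulk genes were kept by filterByExpr. Both were tested with edgeR 4.0.16 (TMM, quasi-likelihood, Benjamini-Hochberg FDR of 0.2 for nuclei and 0.05 for bulk) in R 4.3.3. The likelihood ratio test and DESeq2 1.42.0 were alternatives. Shares and depths were compared by two-sided exact permutation tests (scipy 1.17.1). Bulk values are TMM-scaled CPM. Astrocyte, mural and neuronal nuclei were classed by marker genes with a UMI, neuronal nuclei by at least 3 UMIs of Slc17a7, Gad1 and Gad2. The pipeline was tested on simulated data, where 98% of the genes changed 4-fold and 85% of those changed 2-fold were recovered in bulk.

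Members and gene lists were chosen with earlier results of these data known. Genes named are the rule genes, the 10 leading genes, up to 4 genes per list with the most UMIs, 4 genes in each direction that had the lowest p in the summed comparison, and in bulk each called gene of the lists and up to 2 others per list. Not every gene that meets this rule is printed, 1 of the 9 called genes of the vascular lists is counted but not reported here, and some others serve as examples chosen after their values were seen.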

Additional observations from a re-analysis of the deposited data

Results flagged for a closer look

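In groups of 4 or 5 mice, a mouse was singled out when its distance to the nearest other mouse took up most of the group's range (Dixon's test at 95%). Of 99 groups looked at, 4 held such a mouse, and chance alone gives about 1 in 20. In bulk mPFC, 1 CUS mouse held 0.868 CPM of Angpt2, against 1.33 to 1.41 in the other CUS mice. A CUS mouse held 110.4 CPM of Lrp8, a reelin and lipoprotein receptor gene, against 93.0 to 96.4 in the others. A control mouse held 120.7 CPM of Slc2a1, against 87.8 to 93.4 in the other controls, and it is the mouse that overlapped the CUS range. A CUS mouse held 118.8 CPM of Slco1a4, against 131.8 to 135.8 in the others.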

How the results depend on the processing

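The difference in the share of endothelial nuclei kept its direction and missed the threshold in every setting run, between 0.0915 and 0.387 percentage points when 1 mouse was left out. The difference in median UMIs per member was -373.8 and lay between -746.7 and 127.3 when 1 mouse was left out, with the sign reversed without control replicate 1. It was -2388.4 with at least 3 rule genes and -2350.8 with at least 1000 genes per nucleus. For the summed nuclei, the single call became 2 with the likelihood ratio test, 3 without TMM factors and 0 with DESeq2, with filterByExpr, without a filter, with at least 3 rule genes, without neuronal UMIs and, in a setting added after the data were seen, without members holding 2 or more mural markers. It became 0 to 2 when 1 mouse was left out. TMM factors set the median log2 fold change of all genes at 0.48, against 0.09 without them, and the factor of control replicate 2 (1 nucleus) was 4.90. In bulk, 606 calls became 1330 with the likelihood ratio test, 1413 with DESeq2 and 132 to 1500 when 1 mouse was left out, and the 9 vascular calls became 15, 15 and 2 to 18 in the same settings. Replicate numbers are shared between groups, and no label says that they pair the mice. The deviations of same-numbered mice correlated at 0.03 to 0.23 in bulk and at -0.21 to 0.01 in the summed nuclei. In bulk, 2 of 4 control mice matched their own number best. What unpaired mice would give was not computed, so these values do not settle whether the mice were paired. With a replicate block, calls were 0 in nuclei, 233 in bulk and 4 in the vascular lists, where Cd34, Foxo1 and Slc2a1 had an FDR under 0.05 (0.029 for Slc2a1), Slc7a5, Slc39a10, Igf1r, Nrp1, Nrp2 and Tspan12 had FDRs from 0.053 to 0.133, and outside these lists Nr3c2 had 0.126. The 7 mice with members gave 709 to 60705 UMIs each on the genes tested, which limits what the nuclei can show.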
